A study of Mus musculus with 12 samples.

Results

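The Schlafen genes of the mouse were examined in bone marrow-derived macrophages (BMDMs), macrophages grown from bone marrow cells, from WT and Pim1-/- mice. The members are Slfn1, Slfn2, Slfn3, Slfn4, Slfn5, Slfn8 and Slfn9, taken by their gene symbols, that is 7 of the 23997 genes in each table. RNA-seq was performed on 12 libraries, with 3 in each of 4 groups: untreated WT, untreated Pim1-/-, WT treated with LPS and Pim1-/- treated with LPS. All mice were male, on the C57BL/6 background and 8 to 10 weeks old. The Pim1-/- mice carried a large CRISPR/Cas9 deletion of exons I to V of Pim1, a serine/threonine kinase gene, in all their cells. Bone marrow cells of both genotypes were cultured for 1 d and then for 7 d with 10 ng/ml recombinant human M-CSF, and the treated cells received 100 ng/ml LPS, a bacterial ligand of Toll-like receptor 4, for 4 h. The labels do not say whether the 3 libraries of a group came from separate mice or separate cultures, so the p-values below measure only the spread between these libraries, which may be technical.

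Schlafen proteins form a family of growth-regulating and antiviral proteins, and many of their genes are induced by type I interferon. Ligands of Toll-like receptor 4 make macrophages secrete interferon beta, which acts back on the cells through the receptor Ifnar1/Ifnar2, the kinases Jak1 and Tyk2 and the factors Stat2 and Irf9, which act at the interferon-stimulated response element (ISRE) of target promoters. The family falls into short proteins (Slfn1 and Slfn2), intermediate ones (Slfn3 and Slfn4) and long ones with a helicase-like part (Slfn5, Slfn8 and Slfn9). Slfn2 is known for keeping T cells and monocytes quiescent, Slfn1 for restraining growth when overexpressed in thymocytes, and Slfn4 as a gene of myeloid cells.

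The 7 genes lie in one cluster on chromosome 11 (GENCODE M21, GRCm38). In order along the chromosome it holds Slfn5 (chr11:82951349-82964840, + strand), Slfn9 (chr11:82978390-82991830, - strand), Slfn8 (chr11:83002158-83020810, - strand), Slfn2 (chr11:83065112-83070678, + strand), Slfn1 (chr11:83116849-83122670, + strand), Slfn4 (chr11:83175186-83190216, + strand) and Slfn3 (chr11:83191330-83215154, + strand). The longest coding sequences have 337 codons in Slfn1 and 378 in Slfn2, 640 in Slfn3 and 602 in Slfn4, and 884, 910 and 910 in Slfn5, Slfn8 and Slfn9. Some pairs are near copies: the coding sequences of Slfn8 and Slfn9 were 92.7% identical over 2730 aligned nucleotides, and those of Slfn3 and Slfn4 were 92.7% identical over 1785. All other pairs were between 63.2% and 77.0% identical. Of the stretches of 100 nucleotides in its transcripts, Slfn8 shared 3.71% and Slfn9 3.90% exactly with another Schlafen gene. Part of these are shared with the pseudogene Slfn10-ps, and between the pair itself the shares were 1.28% of Slfn8 and 0.88% of Slfn9. The share with any other Schlafen gene was 0.13% in Slfn2 and 0.05% in Slfn4, and no such stretch of Slfn1, Slfn3 or Slfn5 was shared. With stretches of 50 nucleotides the shares were 15.4% in Slfn8, 11.2% in Slfn9, 13.2% in Slfn3 and 8.37% in Slfn4, and within the pairs 9.82%, 6.24%, 13.2% and 6.45%. How the authors' counting treated fragments that match more than one of these genes is not given in the sources used here, so values within each pair are uncertain.

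The sequences before the start sites are shown because a motif of interferon-induced promoters was found in the long genes and not in the others. Promoters were taken from RefSeq (GRCm38.p6) as 250 bases before to 50 bases after each start, and were found for all 7 genes. The ISRE core, searched on both strands as GAAA, any 2 bases and GAAA, was found in Slfn5, Slfn8 and Slfn9 and in none of the other 4, while 3.44% of all 32851 promoters of that length hold it. The capitals mark it in these windows of the 3 genes, read 5′ to 3′ along the strand of each gene.

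Slfn5: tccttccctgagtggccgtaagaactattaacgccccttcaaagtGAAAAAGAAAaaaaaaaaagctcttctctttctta

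Slfn8: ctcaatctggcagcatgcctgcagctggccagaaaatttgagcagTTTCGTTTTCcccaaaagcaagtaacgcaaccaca

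Slfn9: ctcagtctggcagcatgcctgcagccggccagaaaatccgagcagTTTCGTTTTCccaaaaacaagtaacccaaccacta

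These windows are chr11:82951902-82951981 on the + strand, chr11:83020824-83020903 on the - strand and chr11:82991841-82991920 on the - strand. The match begins 155 bases before the RefSeq start of Slfn5 at position 82952102, 48 before that of Slfn8 and 45 before that of Slfn9. GENCODE M21 puts the first base of Slfn5 further upstream, at the start of a short noncoding transcript, so that this window lies in an intron of that transcript. In Slfn8 and Slfn9 the same letters stand in nearly the same place and in the reverse direction, as TTTCGTTTTC. None of the 7 promoters held the gamma-activated site, searched as TTCNNNGAA, which 8.30% of all promoters hold. Reading the other 4 promoters showed a shared stretch, ACTTCCTGG, which includes the core letters of sites bound by ETS factors. It was chosen after these sequences had been read, it is in Slfn1, Slfn2, Slfn3 and Slfn4 and in none of the long genes, and 0.84% of all promoters hold it on either strand. The capitals mark it below.

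Slfn1: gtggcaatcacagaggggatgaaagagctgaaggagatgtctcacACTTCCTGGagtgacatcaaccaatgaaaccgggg

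Slfn2: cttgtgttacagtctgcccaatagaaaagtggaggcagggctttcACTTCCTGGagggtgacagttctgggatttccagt

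Slfn3: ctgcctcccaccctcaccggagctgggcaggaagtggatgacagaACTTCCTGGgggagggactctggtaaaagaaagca

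Slfn4: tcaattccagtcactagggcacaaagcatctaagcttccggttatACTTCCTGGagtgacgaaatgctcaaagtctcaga

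These windows are chr11:83116701-83116780, chr11:83065012-83065091, chr11:83191243-83191322 and chr11:83175068-83175147, all on the + strand, and the stretch begins 74, 55, 42 and 73 bases before the RefSeq start. None of the windows shown overlaps an exon of GENCODE M21. A match is a description of the letters and does not show that a factor binds there.

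The targeted gene and the other facts of the cultures were as follows. Pim1 was at 22.9 FPKM (fragments scaled to transcript length and library, the unit of all levels here) in untreated WT and 8.74 in untreated Pim1-/- cells on average, and at 645.4 and 218.9 FPKM after LPS. The values are for the gene as a whole, so what was left in Pim1-/- cells cannot be assigned to deleted or remaining exons. All 7 macrophage markers (Adgre1, listed by its older symbol Emr1, Csf1r, Cd68, Itgam, Lyz2, Mertk and Fcgr1) were at 1 FPKM or more in every group. In Pim1-/- cells 3 of 7 were called lower in either treatment, where 3.37% of all genes were without treatment and 5.15% after LPS. The 7 summed to 27690 to 29730 FPKM in untreated WT against 14220 to 15150 in untreated Pim1-/- cells, and to 28940 to 29500 against 14250 to 16020 after LPS. Lyz2 made up most of these sums, with means of 26300 against 13300 FPKM without treatment and 26790 against 13680 after LPS. Without treatment the Pim1-/- means of the 7 lay between 29.2% (Fcgr1) and 82.3% (Cd68) of those of WT. Of 8 genes of dividing cells, 8 were called higher in untreated Pim1-/- cells, where 4.40% of all genes were, and 7 after LPS, where 3.51% were. Their sums without treatment were 23.2 to 28.0 FPKM in WT against 361.3 to 370.2 in Pim1-/- cells. After LPS they were 36.4 to 38.5 against 151.4 to 163.2 FPKM. Mki67, the gene not called after LPS, made up most of the treated WT sum. Its mean was 2.90 FPKM in untreated and 28.6 in treated WT cells, and 26.2 in treated Pim1-/- cells. The others of the list were lower after LPS in WT. Monocyte markers summed to 13.5 to 14.8 FPKM in untreated WT and 4.98 to 5.38 in untreated Pim1-/- cells, and to 8.38 to 8.73 and 2.74 to 3.22 after LPS. The sums were at most 8.20 FPKM for 7 neutrophil markers with a row, 2.82 for 7 dendritic cell markers and 0.0399 for 4 B cell markers. The T and NK cell list reached 4.75 to 5.33 FPKM in untreated WT and 0.413 to 0.482 in untreated Pim1-/- cells, and Cd3e, Cd3g, Cd8a and Ncr1 were listed at 0 throughout. Nearly all of this was Cd4, at a mean of 4.96 FPKM in untreated WT and 0.432 in untreated Pim1-/- cells. In such bulk samples, fewer cells of a type and less RNA per cell cannot be told apart. The part of these marker differences in the Schlafen values was not tested. The median coefficient of variation between replicates lay between 3.03% and 5.12%.

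Slfn2 had the largest part of the summed Schlafen FPKM, a length-scaled level, in every group, and the sum was higher after LPS. The 7 genes together were at 202.9 ± 10.3 FPKM (SD, n = 3) in untreated WT and 147.3 ± 1.01 FPKM in untreated Pim1-/- cells, and at 3867 ± 61.6 and 3033 ± 171.2 FPKM after LPS. Slfn2 made up 86.6% ± 0.548 of this sum in untreated WT and 86.8% ± 0.979 in untreated Pim1-/- cells, and 71.6% ± 0.455 and 78.4% ± 1.01 after LPS (SD, n = 3 each). By approximate fragments, which are not scaled to length, it had 65.1% to 67.3% and 67.2% to 70.8% without treatment, and 42.2% to 43.3% and 50.9% to 53.8% after LPS. In untreated WT cells the order of the levels was Slfn2, Slfn5, Slfn8, Slfn3, Slfn9, Slfn4 and Slfn1. In untreated Pim1-/- cells Slfn9 stood second, before Slfn5, and Slfn8 came after Slfn3. After LPS both genotypes had Slfn2, Slfn5, Slfn8 and Slfn9 as the leading 4, followed in WT by Slfn1, Slfn3 and Slfn4 and in Pim1-/- cells by Slfn3, Slfn1 and Slfn4. No neighbours in any of these orders overlapped in their 3 libraries.

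**Figure D1:**
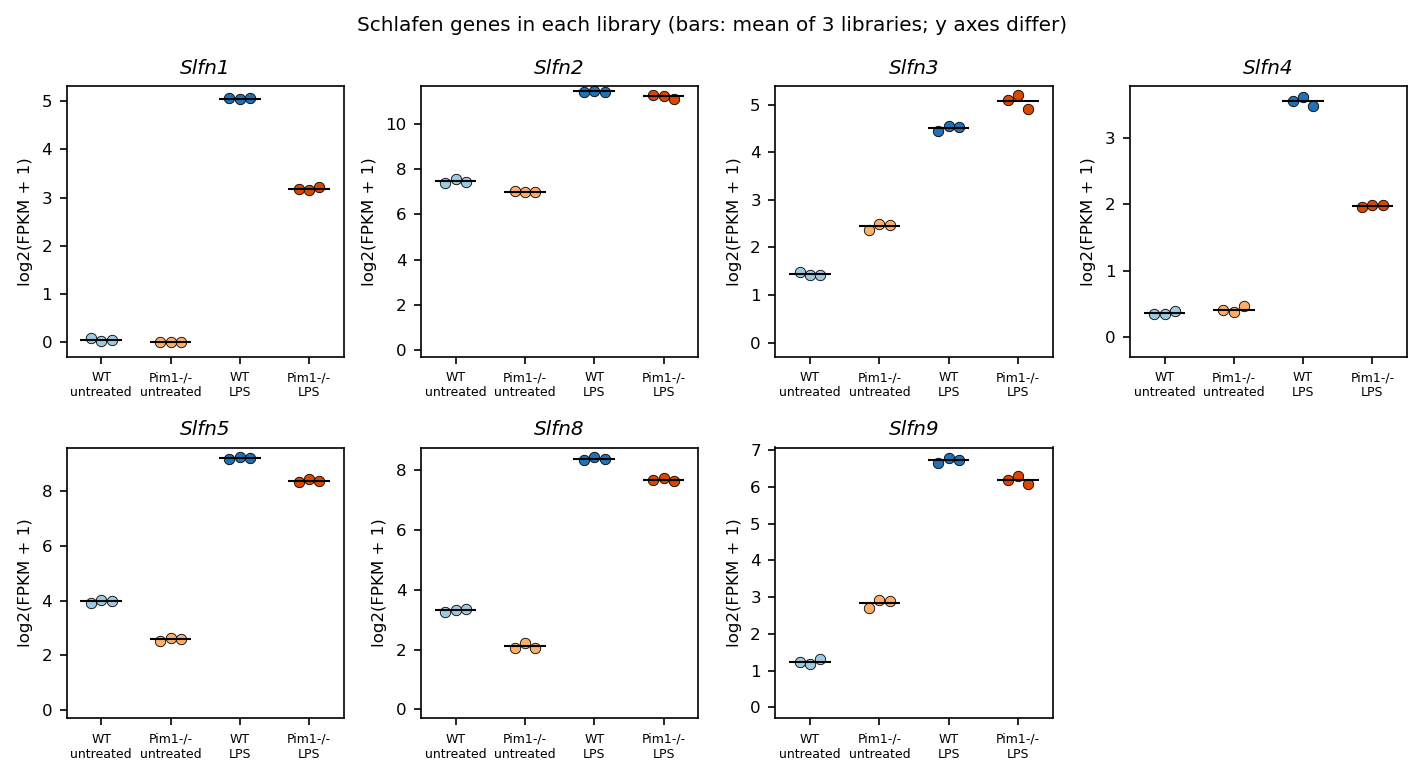
Level of each Schlafen gene as log2(FPKM + 1) in each of the 12 libraries, by genotype and treatment; points are libraries, horizontal lines are means of 3, and the vertical axes differ between genes. All 7 genes lie higher after LPS in both genotypes, Slfn3 lies higher in Pim1-/- cells in both treatments, and Slfn9 lies higher in untreated but lower in LPS-treated Pim1-/- cells.

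The first comparison asked how the absence of Pim1 changed the family in untreated BMDMs. The long genes went in different directions, since Slfn5 and Slfn8 fell while Slfn9 rose, and of the others Slfn3 rose. A gene was called when its difference on log2(FPKM + 1) exceeded 2-fold, its p was under 0.05 and its FDR (Benjamini-Hochberg, over the 10581 genes tested with limma) was under 0.1. By this rule 2 of 7 members were lower, where 3.37% of all genes tested were, and 2 were higher, where 4.40% were. At the FDR alone 3 members were lower and 2 higher, against 44.2% and 34.6% of all genes. The median difference was -0.06 over the members and -0.05 over all genes tested. The median member was Slfn1, at traces in WT and 0 in Pim1-/- cells, so this median depends on the pseudocount. With a pseudocount of 0.1 the median member was Slfn2, at -0.46, beside -0.07 over all genes.

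Slfn5, a long Schlafen protein whose gene is induced by interferon, was at 14.2, 15.1 and 14.9 FPKM in the untreated WT libraries and at 4.76, 5.29 and 5.09 FPKM in those of Pim1-/- cells. All 3 Pim1-/- libraries lay below all 3 of WT, at 34.2% of its mean. The gene had a log2 fold change of -1.38 (standard error, SE, 0.04, adjusted p = 2.78e-13 by limma).

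Slfn8 was at 8.47, 9.14 and 9.27 FPKM in WT and at 3.13, 3.67 and 3.19 FPKM in Pim1-/- cells. The groups did not overlap, and the Pim1-/- mean was 37.2% of that of WT. Slfn8 had a log2 fold change of -1.20 (SE 0.05, adjusted p = 1.92e-11 by limma).

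Slfn9, the near copy of Slfn8, went the other way. It was at 1.35, 1.26 and 1.49 FPKM in WT and at 5.51, 6.65 and 6.50 FPKM in Pim1-/- cells. All 3 Pim1-/- libraries lay above those of WT, by a ratio of means of 4.55. The log2 fold change was 1.61 (SE 0.07, adjusted p = 9.24e-12 by limma).

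Slfn3 was at 1.79, 1.68 and 1.68 FPKM in WT and at 4.13, 4.64 and 4.57 FPKM in Pim1-/- cells. The groups did not overlap, and the Pim1-/- mean was 258.8% of the WT mean. Its log2 fold change was 1.00 (SE 0.07, adjusted p = 3.07e-09 by limma), at the 2-fold threshold itself. It lay just under that threshold with median-ratio scaling, at 0.99, and without WT replicate 2 (0.99), WT replicate 3 (0.99), Pim1-/- replicate 2 (0.98) or Pim1-/- replicate 3 (0.98).

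Slfn2 was at 168.7, 187.0 and 171.5 FPKM in WT and at 130.3, 127.0 and 126.4 FPKM in Pim1-/- cells. Every Pim1-/- library lay below every WT library, but the Pim1-/- mean was still 72.8% of that of WT. Its log2 fold change of -0.45 (SE 0.05, adjusted p = 9.05e-07 by limma) was under the 2-fold threshold.

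Slfn4 was low and Slfn1 at traces without LPS. Slfn4 was at 0.274, 0.276 and 0.314 FPKM in WT and at 0.324, 0.292 and 0.380 FPKM in Pim1-/- cells, and the groups overlapped (log2 fold change 0.05, 95% confidence interval -0.07 to 0.16, adjusted p = 0.425 by limma). From the size of the steps between low values, these are about 38.9 to 62.9 fragments a library. Slfn1 was at 0.0636, 0.0149 and 0.0410 FPKM in WT, about 4.00, 1.00 and 2.99 fragments, and was listed at 0 in all 3 Pim1-/- libraries, where a count of 0 allows up to 0.0393 to 0.0450 FPKM. The difference did not pass the FDR on log2(FPKM + 1) (adjusted p = 0.284 by limma) and did with a pseudocount of 0.1 (log2 fold change -0.47, adjusted p = 0.0018 by limma), where it rests on 8 fragments over the 3 WT libraries against 0.

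The second comparison asked the same after LPS. Here 6 of the 7 members were lower in Pim1-/- cells and Slfn3 was higher, all at an FDR under 0.1, which held for 43.4% of all genes in the lower and 37.6% in the higher direction. With the 2-fold threshold, Slfn1 and Slfn4 were called lower and none of the others passed, so 2 of 7 members were called lower, where 5.15% of all genes were, and 0 higher, where 3.51% were. The median difference was -0.70 over the members and -0.03 over all genes tested. The FPKM of all genes in a library summed to 837585 to 849323 in treated WT and 713307 to 743912 in treated Pim1-/- cells. The values were not scaled to these totals.

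Slfn1 was at 32.3, 31.9 and 32.4 FPKM in the LPS-treated WT libraries and at 8.00, 7.96 and 8.27 FPKM in those of Pim1-/- cells. The groups lay far apart, with the Pim1-/- mean at 25.1% of that of WT. The log2 fold change was -1.87 (SE 0.05, adjusted p = 2.52e-14 by limma).

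Slfn4 was at 10.8, 11.3 and 10.2 FPKM in WT and at 2.89, 2.97 and 2.97 FPKM in Pim1-/- cells. The groups did not overlap, the Pim1-/- mean was 27.3% of that of WT, and the log2 fold change was -1.58 (SE 0.05, adjusted p = 7.18e-13 by limma). Both genes carry the ACTTCCTGG stretch shown above, as do Slfn2 and Slfn3, which were not called here.

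The 3 long genes were all lower after LPS, by less than 2-fold. Slfn5 was at 580.4, 613.0 and 590.4 FPKM in WT and at 326.7, 344.2 and 329.1 FPKM in Pim1-/- cells (log2 fold change -0.83, SE 0.04, adjusted p = 1.29e-10 by limma). Slfn8 was at 325.6, 348.0 and 330.1 FPKM in WT and at 202.5, 215.8 and 199.2 FPKM in Pim1-/- cells (log2 fold change -0.70, SE 0.05, adjusted p = 1.09e-08 by limma). The groups did not overlap for either gene, and the Pim1-/- means were 56.1% and 61.5% of those of WT. Slfn9 was at 99.4, 110.0 and 104.8 FPKM in WT and at 71.8, 77.2 and 67.2 FPKM in Pim1-/- cells, again without overlap, at 68.8% of the WT mean (log2 fold change -0.53, SE 0.07, adjusted p = 3.19e-06 by limma). With quantile normalization these differences were smaller, at -0.54, -0.44 and -0.25 for Slfn5, Slfn8 and Slfn9.

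Slfn2 was at 2754, 2800 and 2749 FPKM in WT and at 2504, 2429 and 2200 FPKM in Pim1-/- cells after LPS. The groups did not overlap but lay close, with Pim1-/- cells at 85.9% of the WT mean (log2 fold change -0.22, SE 0.05, adjusted p = 0.000967 by limma), and with quantile normalization the value was -0.04 (adjusted p = 0.438 by limma), so Slfn2 no longer passed the FDR. Slfn3 was at 20.9, 22.6 and 22.0 FPKM in WT and at 33.5, 35.9 and 28.9 FPKM in Pim1-/- cells. All 3 Pim1-/- libraries lay above those of WT, at 149.8% of the WT mean (log2 fold change 0.56, SE 0.07, adjusted p = 2.12e-06 by limma).

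**Figure D2:**
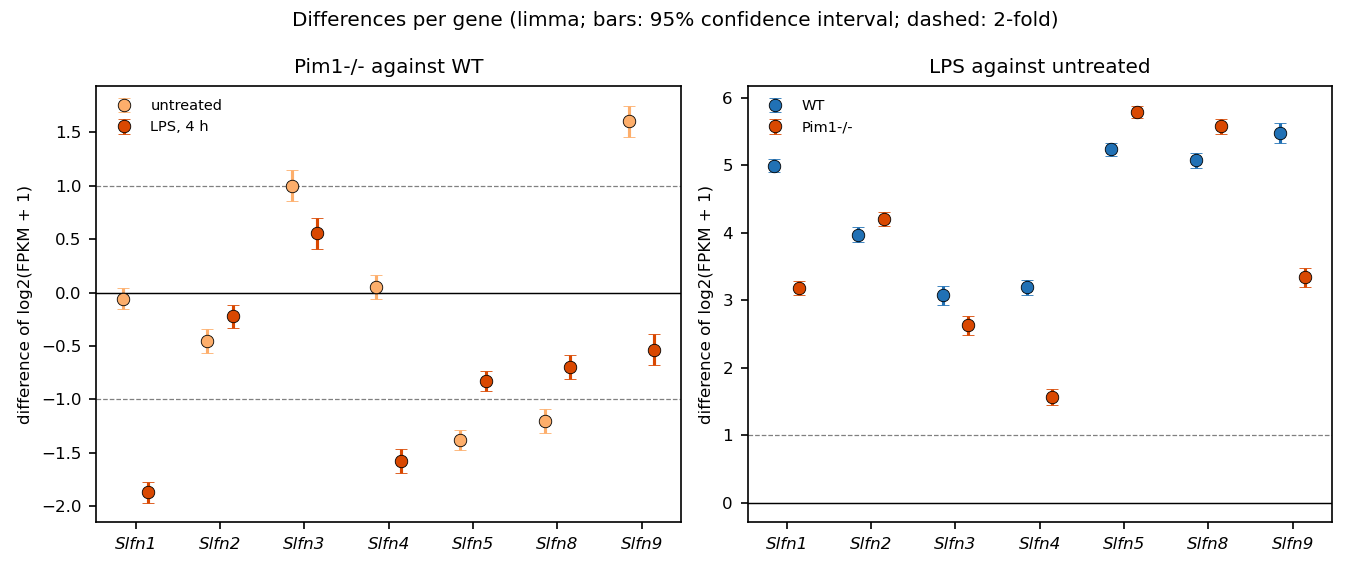
Differences of log2(FPKM + 1) for each Schlafen gene with 95% confidence intervals from limma, on the left between Pim1-/- and WT cells in each treatment and on the right between LPS-treated and untreated cells in each genotype; dashed lines mark 2-fold. On the left, Slfn9 goes from 1.61 in untreated to -0.53 in LPS-treated cells, and on the right the response of Slfn1, Slfn4 and Slfn9 on this scale is smaller in Pim1-/- cells.

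The third question was how LPS changed the family in each genotype. All 7 members rose in WT cells, where 20.1% of all genes tested were called higher, and all 7 rose in Pim1-/- cells, where 14.6% were. Slfn1 and Slfn4 stayed under 1 FPKM in every untreated library, at most 0.0636 and 0.380 FPKM. They passed the filter on low values (1 FPKM in 3 or more libraries) only through the treated libraries. Their rise was therefore fixed in part by the filter, and the counts and medians here include both. The median log2 fold change of the members was 5.00 in WT and 3.34 in Pim1-/- cells, beside 0.00 and -0.01 over all genes. In each gene and genotype the 3 treated libraries lay above the 3 untreated ones. How often this held over all genes was not counted, and for Slfn1 and Slfn4 the filter fixed it in part.

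In WT cells the ratio of the mean levels was largest for Slfn1, which went from traces to a mean of 32.2 FPKM. Its ratio of 808 rests on 8 untreated fragments, and their exact 95% Poisson interval, which covers counting error only, gives 410 to 1870. The log2 fold change of 5.00 for Slfn1 on the log2(FPKM + 1) scale understates this. The ratio was 76.5 for Slfn9, 40.3 for Slfn5, 37.4 for Slfn4, 37.3 for Slfn8, 15.8 for Slfn2 and 12.7 for Slfn3. In Pim1-/- cells the ratios were 66.0 for Slfn5, 61.8 for Slfn8, 18.6 for Slfn2, 11.6 for Slfn9, 8.86 for Slfn4 and 7.37 for Slfn3. Slfn1, listed at 0 in untreated Pim1-/- cells, rose to a mean of 8.08 FPKM.

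The fourth comparison tested whether the response to LPS itself differed between genotypes. It was smaller in Pim1-/- cells for Slfn1, Slfn4 and Slfn9 by more than 2-fold, so 3 of 7 members were called lower, where 4.43% of all genes were, and 0 higher, where 2.24% were. At the FDR alone 4 members had a smaller and 3 a larger response, against 35.8% and 32.7% of all genes. The median difference was -0.44 over the members and 0.00 over all genes.

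For Slfn9 the log2 fold changes after LPS were 5.48 in WT and 3.34 in Pim1-/- cells, a difference of -2.14 (SE 0.10, adjusted p = 8.29e-11 by limma). Both the higher level before and the lower level after treatment enter this difference. For Slfn4 they were 3.19 and 1.57, a difference of -1.62 (SE 0.07, adjusted p = 1.16e-10 by limma), with untreated groups that overlapped. For Slfn1 they were 5.00 and 3.18, a difference of -1.81 (SE 0.07, adjusted p = 8.01e-12 by limma), with trace or 0 values before treatment. This value depends on the pseudocount and nearly repeats the difference of -1.87 after LPS. The fold response of Slfn1 in Pim1-/- cells has no upper bound.

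Slfn3 also had a smaller response, by -0.44 (adjusted p = 0.000904 by limma), below the threshold of size. The response was larger in Pim1-/- cells for Slfn5, by 0.55 (SE 0.06, adjusted p = 1.87e-06), for Slfn8, by 0.50 (SE 0.08, adjusted p = 3.61e-05), and for Slfn2, by 0.23 (SE 0.07, adjusted p = 0.0106), all by limma and under 2-fold. With quantile normalization the difference was 1.01 for Slfn5, past the threshold, 0.88 for Slfn8 and 0.46 for Slfn2. Slfn5 and Slfn8 therefore lay further below WT before than after LPS, at 34.2% and 37.2% against 56.1% and 61.5% of the WT mean.

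Along the cluster, neighbours differed in direction. Slfn9 lies between Slfn5 and Slfn8 and was higher in untreated Pim1-/- cells while both its neighbours were lower. After LPS, Slfn4 was lower and Slfn3, which begins shortly behind it on the same strand, was higher. Slfn10-ps, a transcribed pseudogene between Slfn8 and Slfn2, was at 2.16 to 2.27 FPKM in untreated WT and 1.60 to 1.79 in untreated Pim1-/- cells, and at 5.84 to 6.71 and 5.64 to 6.23 FPKM after LPS. Its log2 fold change between genotypes was -0.28 without treatment (adjusted p = 0.000527 by limma) and -0.08 after LPS (adjusted p = 0.202 by limma). Slfn5os was listed at 0 in all libraries, and Slfn14 and Slfnl1 were at 0 or at traces and were not tested. Of the 5 nearest protein-coding genes on each side of the cluster, 5 of 10 could be tested and 0 were called between genotypes in either treatment. Of all genes, between 3.37% and 5.15% were called in each direction and treatment. By limma's FDR alone 2 of the 5 were lower and 1 higher without treatment, against 44.2% and 34.6% of all genes. After LPS 2 were lower and 3 higher, against 43.4% and 37.6% of all genes. LPS raised Rffl, a ubiquitin ligase gene before the cluster, in both genotypes and Ap2b1, an adaptin gene behind it, in WT cells.

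**Figure D3:**
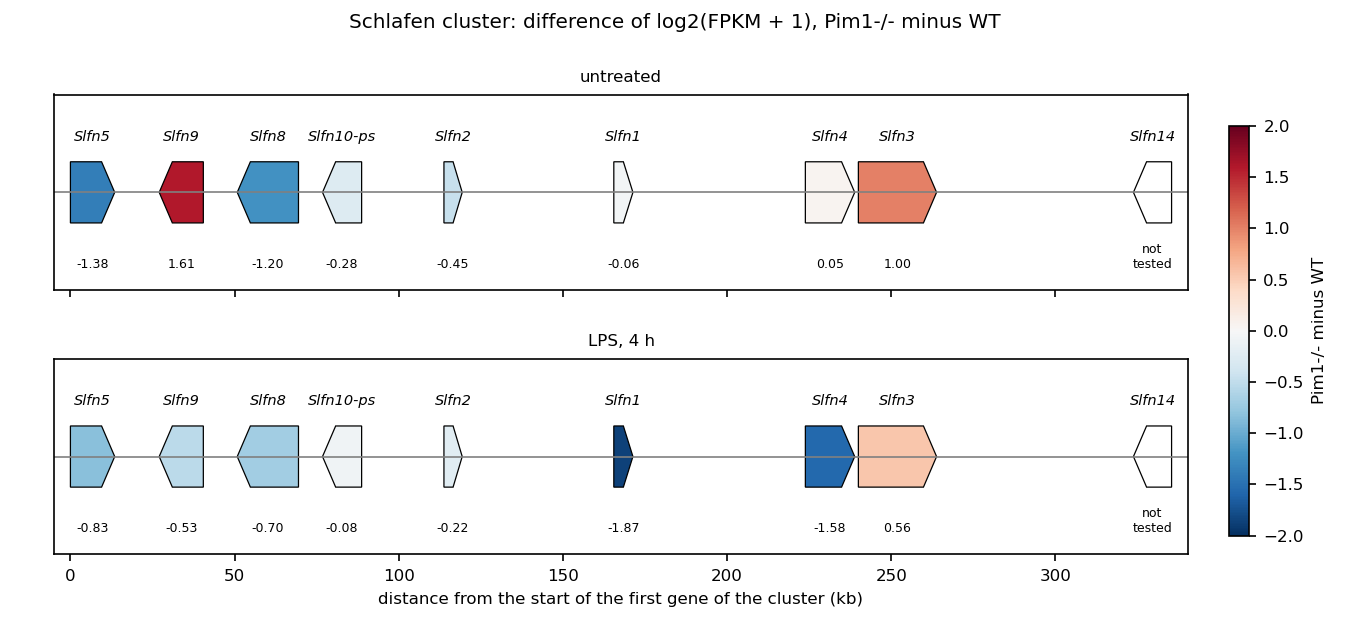
Map of the Schlafen cluster to scale, with distance in kb from the start of Slfn5, arrows in the direction of transcription and colours and numbers giving the difference of log2(FPKM + 1) between Pim1-/- and WT cells, above without treatment and below after LPS. Slfn9 stands at 1.61 between Slfn5 at -1.38 and Slfn8 at -1.20 without treatment, and Slfn4 at -1.58 beside Slfn3 at 0.56 after LPS.

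In untreated cells the balance between Slfn8 and Slfn9 differed between genotypes more than their sum. In untreated WT cells the ratio of Slfn8 to Slfn9 was 6.27, 7.24 and 6.22 in the 3 libraries, and in untreated Pim1-/- cells it was 0.568, 0.552 and 0.491, so the more abundant gene of the pair was another one in each genotype. After LPS the ratio was 3.20 ± 0.0689 in WT and 2.86 ± 0.0912 in Pim1-/- cells (SD, n = 3). The summed level of Slfn8 and Slfn9, a measure added after the values had been seen, was 10.3 ± 0.470 FPKM in untreated WT and 9.55 ± 0.848 FPKM in untreated Pim1-/- cells, a log2 fold change of -0.11 (95% confidence interval -0.23 to 0.02, adjusted p = 0.114 by limma). After LPS the sum was lower in Pim1-/- cells, by -0.66 (adjusted p = 5.18e-08 by limma), and its response to LPS was smaller by -0.55 (adjusted p = 3.06e-05 by limma). The opposite changes of Slfn8 and Slfn9 before treatment hence nearly balanced in FPKM.

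The ratio of Slfn3 to Slfn4 was 5.99 ± 0.605 in untreated WT and 13.6 ± 2.06 in untreated Pim1-/- cells, and 2.03 ± 0.120 and 11.1 ± 1.23 after LPS (SD, n = 3 each). LPS thus lowered the ratio in WT cells well outside the spread of the libraries, while in Pim1-/- cells the ranges of 12.0 to 15.9 before and 9.74 to 12.1 after LPS overlapped. Their sum after LPS was 32.6 ± 1.14 FPKM in WT and 35.7 ± 3.56 in Pim1-/- cells, a log2 fold change of 0.12 (95% confidence interval -0.01 to 0.26, adjusted p = 0.0947 by limma). Without treatment the sum followed Slfn3, with 0.94 (adjusted p = 2.97e-09 by limma). Fragments that match both genes of a pair bear on the ratios, and, since 1 fragment is worth a different FPKM in each gene, on the sums too, and their part was not tested.

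**Figure D4:**
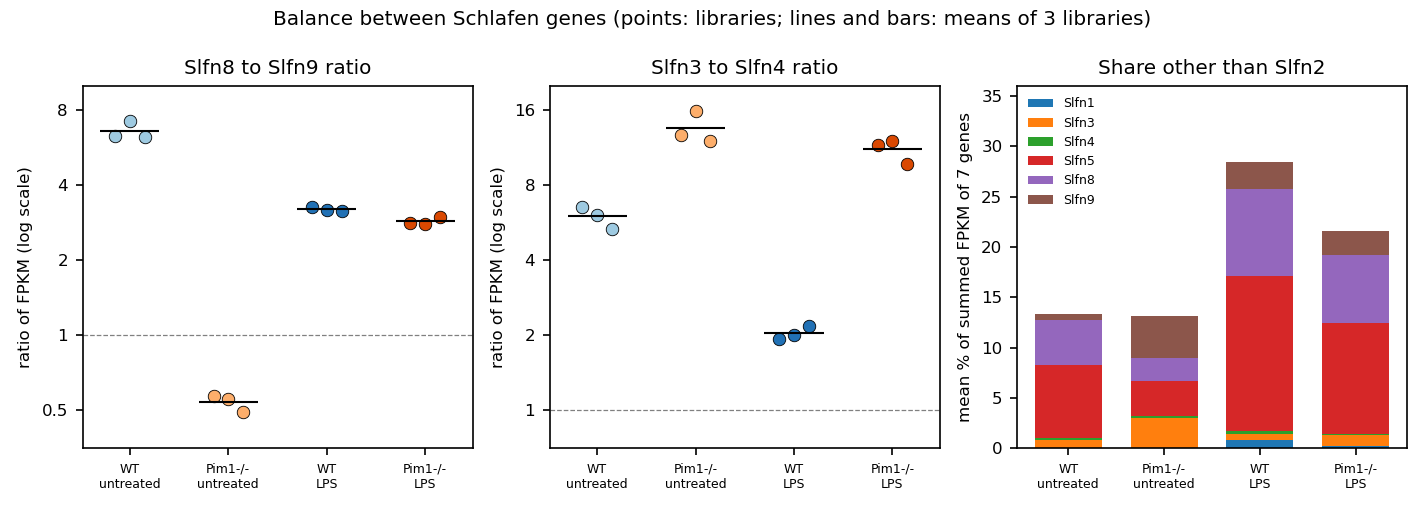
Ratio of Slfn8 to Slfn9 and of Slfn3 to Slfn4 in each library on a log scale, with means of 3 as lines, and on the right the mean share of each gene other than Slfn2 in the summed FPKM of the 7 genes. The Slfn8 to Slfn9 ratio falls from a mean of 6.58 in untreated WT to 0.537 in untreated Pim1-/- cells, and is 3.20 and 2.86 after LPS.

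The genes of interferon production and signalling were tallied beside the family. A list of 21 was used, all of which passed the filter on low values. In untreated Pim1-/- cells its median difference on the log2 scale was -0.53, beside -0.05 over all genes tested. Of the list, 6 were called lower, where 3.37% of all genes were, and 0 higher, where 4.40% were. The largest differences were those of Irf7 (-1.71), the interferon regulatory factor that amplifies the response, Isg15 (-1.41), a ubiquitin-like interferon target, Ikbke (-1.39), a kinase that phosphorylates Irf3 and Irf7, and Irf1 (-1.28), and the other 2 were Irf8 (-1.24) and Stat2 (-1.06). After LPS the median was -0.38 over the list and -0.03 over all genes. Then 6 were called lower, where 5.15% of all genes were, and 0 higher, where 3.51% were. These were led by Irf8 (-1.93), a factor of myeloid cells, Socs1 (-1.49), an inhibitor of Jak kinases, Jak1 (-1.30) and the receptor subunit Ifnar1 (-1.26), followed by Irf7 and Stat2.

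LPS raised 15 of the 21 in WT cells, where 20.1% of all genes were called higher, and lowered Tlr4. The rises were led by Isg15 (7.97), Usp18 (7.54), Socs1 (6.44) and Irf7 (6.38). In Pim1-/- cells LPS raised 13, where 14.6% of all genes were called higher, led by Isg15 (8.68), Usp18 (8.03), Irf7 (7.05) and Irf1 (5.55). The response differed by more than 2-fold for Socs1 alone, which had a smaller one in Pim1-/- cells (-1.35, adjusted p = 8.62e-09 by limma). Over all genes 4.43% had a smaller and 2.24% a larger response by this rule. At the FDR alone 6 of the 21 had a smaller and 13 a larger response in Pim1-/- cells, against 35.8% and 32.7% of all genes. The median difference was 0.30 over the list and -0.003 over all genes. Socs1 and Ifnb1 stayed under 1 FPKM in every untreated library and passed the filter only through the treated ones. Ifnb1, the gene of interferon beta, was listed at 0 in all 6 untreated libraries. After LPS it was at 9.52, 7.80 and 8.17 FPKM in WT and at 15.1, 17.0 and 14.5 FPKM in Pim1-/- cells. All 3 Pim1-/- libraries lay above those of WT, with a log2 fold change of 0.80 (SE 0.07, adjusted p = 3.86e-08 by limma), under the 2-fold threshold. At this time point 6 Schlafen genes were at lower levels in LPS-treated Pim1-/- cells. By contrast, the study reported less interferon beta mRNA by RT-qPCR in LPS-treated Pim1-/- BMDMs. It also reported less secreted interferon beta by ELISA, at a later time. The Ifnb1 level here is RNA at 1 time point and not secreted protein. The part of interferon beta in the Schlafen levels was not tested.

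For each member, the 3 other genes with the highest Pearson's r over the 12 libraries on log2(FPKM + 1) are given as a description. The libraries fall into 4 groups that LPS parts widely, so high values are common. Slfn5 was most like Fam26f and Parp14 (r = 0.9996 each) and Oasl2 (r = 0.9995), and Slfn8 most like Slamf7 and Ifi203 (r = 0.9998 each) and Parp14 (r = 0.9995). Parp14, which appears for both, was at a mean of 18.2 FPKM in untreated WT, 6.53 in untreated Pim1-/-, 581.8 in treated WT and 383.2 in treated Pim1-/- cells. Slfn2 was most like Irgm1, Mnda and Sp140 (r = 0.9996 each).

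Slfn1 was most like Lipg (r = 0.9996), Lcn2 and Cyfip1 (r = 0.9995 each), and Slfn4 most like Cobll1 (r = 0.9991), Gfi1 (r = 0.9988) and Gmppb (r = 0.9987). Lcn2, the gene of an iron-binding secreted protein, was at a mean of 67.3 FPKM in treated WT and 14.7 in treated Pim1-/- cells, and Gfi1, a repressor of myeloid genes, at 23.6 and 4.49 FPKM. Slfn9 was most like Cpd (r = 0.9992), Endod1 (r = 0.9983) and Gspt1 (r = 0.9981), and Slfn3 most like Atm (r = 0.9983), Pwp1 and Anxa4 (r = 0.9981 each). Cpd, the gene of carboxypeptidase D, was at 12.7 FPKM in untreated WT and 24.6 in untreated Pim1-/- cells and at 113.2 and 95.6 FPKM after LPS. Among the members themselves r was highest between Slfn5 and Slfn8 and lowest between Slfn3 and Slfn4 (0.816).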

How the data were processed

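RNA was sequenced as stranded mRNA libraries. The submitters' processing notes name bcl2fastq 2.20.0.422, cutadapt 1.18, TopHat2 2.0.13, Cuffdiff 2.2.1 and the build mm10, while the methods text names rat rn5. The authors deposited 1 value per gene and library with no unit, read here as FPKM from its decimals and the use of Cuffdiff. No file holds counts. The depth behind a value was estimated from the steps between low values (72.3% of 3286 values within 0.1 of a whole multiple, where chance gives 20.0%), assuming transcripts shortened by 200 nucleotides, and the floor was set at 3 fragments. Such floors cover counting error only.

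No further scaling was applied, so the summed FPKM of a library differed between groups. Without treatment it was 467484 to 489710 in WT and 452511 to 472138 in Pim1-/- cells, and it was higher after LPS in both. Among the alternatives, only quantile normalization makes these totals alike. A filter kept the 10581 genes that reached 1 FPKM in 3 or more libraries, and limma 3.58.1 in R 4.3.3 fitted the mean of each of the 4 groups to log2(FPKM + 1) with a mean-variance trend. On this scale changes of low genes come out too small. Adjusted p-values are Benjamini-Hochberg values over all genes tested, and all tests are two-sided. All 7 members passed the filter, Slfn1 and Slfn4 only through the treated libraries. The test was checked on simulated data. Tables, alignments and figures used Python 3.11.15, pandas 2.3.3, numpy 2.4.6, Biopython 1.88 and matplotlib 3.10.9.

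The members and lists were chosen with earlier results of these data known. Named genes are all members, Pim1, other Schlafen genes, the 3 genes most like each member, up to 4 called interferon genes per comparison with Ifnb1, called neighbours of the cluster and the markers. Irf8 and Stat2 without treatment, Irf7 and Stat2 after LPS, and Tlr4 were named after their values were seen. Of the marker lists, Ly6g had no row. A gene of the interferon list is not reported here and stayed out of its counts. Alternatives covered the pseudocount, filters, scalings, the groups in the fit, the trend, the replicate block, the fold threshold, leaving out each library and, added later, sums of the near-identical pairs.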

Additional observations from a re-analysis of the deposited data

Results flagged for a closer look

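For 3 members the LPS response was not the same in both genotypes by the test of the difference itself (limma, 3 libraries in each of 4 groups). It was smaller in Pim1-/- than in WT cells by -1.81 on the log2 scale for Slfn1, by -1.62 for Slfn4 and by -2.14 for Slfn9. For Slfn1 and Slfn4 the difference lay in the treated libraries, whereas for Slfn9 the untreated libraries differed in the opposite direction from the treated ones. Slfn1 was listed at 0 in all 3 untreated Pim1-/- libraries, so its fold response there has no upper bound and cannot be placed below that of WT. Its value of -1.81 on log2(FPKM + 1) depends on the pseudocount and nearly repeats the difference of -1.87 after LPS. In sums of the near-identical pairs, added after the values were seen, the difference was -0.55 for Slfn8 and Slfn9 and -0.82 for Slfn3 and Slfn4, both under 2-fold.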

How the results depend on the processing

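No member changed direction under the other settings (except sums of pairs, below), which left 519 of 525 log2 fold changes on their side of the threshold. The exceptions were Slfn3 without treatment (5 settings) and Slfn5 in the difference of responses (quantile normalization, 1.01). Members called higher without treatment went from 2 to 1 with median-ratio scaling, and lay between 1 and 2 when 1 library was left out (without WT replicate 2 or 3, or Pim1-/- replicate 2 or 3). Without the fold threshold, members called after LPS went from 2 to 6 lower and from 0 to 1 higher, and those with a larger response from 0 to 3. At the FDR alone, Slfn2 after LPS was lost with quantile normalization (adjusted p = 0.438 by limma) and Slfn1 without treatment was gained with a pseudocount of 0.1 (adjusted p = 0.0018 by limma). Quantile normalization raised members with a larger response from 0 to 1; it moved the median of all genes by -0.18 for LPS in WT and -0.17 in Pim1-/- cells, and the lower share of genes called in WT from 42.2% to 52.9%. A pseudocount of 0.1 gave Slfn1 7.87 and Slfn4 4.81 for LPS in WT, 6.35 and 2.82 in Pim1-/- cells. As sums, chosen after the values were seen, Slfn8 and Slfn9 reversed against Slfn9 without treatment (-0.11) and against Slfn8 in the response (-0.55), and Slfn3 and Slfn4 against Slfn4 after LPS (0.12). The sums also lost the calls of Slfn8 (-0.11) and Slfn3 (0.94) without treatment, and the smaller responses of Slfn9 (-0.55) and Slfn4 (-0.82) fell under 2-fold. With the replicate block, 2 members were called lower and 2 higher without treatment, and no call of a member changed. Same-numbered libraries deviated together (r 0.33, 0.37 and 0.46 between genotypes without treatment; 0.43, 0.54 and 0.68 between treatments in Pim1-/- cells) over 3646 genes, but not in every pair over 5416 genes (0.01 to 0.28 and 0.08 to 0.34). Depth limits Slfn1 and Slfn4 without treatment, and no file gives it directly.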
